A study of Mus musculus with 18 samples.

Results

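The genes described here encode the working parts of the lysosome in RAW264.7 cells, a mouse macrophage-like line. They comprise 9 cathepsins, 10 glycosidases, lipases and other hydrolases, 3 soluble activators and carriers, 9 membrane proteins, the transcription factor gene Tfeb and 8 genes of the proton pump. They were chosen by name, as the probe sets that the platform annotation pairs with 40 gene symbols. Earlier results of these data were known when the genes were chosen. Of these 40 genes, 39 had a probe set listed with that symbol alone, and all 39 were among the 11547 genes tested. The remaining gene, Cd63, had no such probe set and was not analysed here. The 39 genes were measured by 89 of the 45101 probe sets, and the brightest probe set stood for each gene.

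For 8 h the cells received solvent (0.1% DMSO, called vehicle), 10 ug/mL of a sub-fraction made from the St John's wort plant, Hypericum perforatum, or 4 compounds mixed together. The latter, labelled the 4-component system and called the mixture, held amentoflavone at 0.07 uM, quercetin at 0.08 uM, chlorogenic acid at 0.2 uM and pseudohypericin at 0.03 uM. Each was given alone or with 10 ug/mL lipopolysaccharide (LPS), the bacterial cell wall component sensed by Toll-like receptor 4. All cells were treated in the dark and then exposed to ambient light for 30 min. The 6 groups had 3 arrays each, and all came from 1 cell line, so they describe that line and not primary macrophages. Whether arrays within a group stem from separate cultures is not stated in the labels. The p-values therefore reflect only how far these samples differ, and that spread may be technical.

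Lysosomes degrade proteins, lipids, glycans and whole organelles with hydrolases that work in an acid lumen. The vacuolar proton pump, V-ATPase, makes that lumen acid: its cytosolic V1 sector hydrolyses ATP and its membrane-bound V0 sector carries protons across. TFEB and its relatives activate many lysosomal genes through an E-box in their promoters, and macrophages use the organelle to digest what they engulf and to process antigen.

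The E-box was looked for as TCACGTGA, which reads the same on both strands and contains the shorter core CACGTG. RefSeq promoters on GRCm38.p6, spanning 250 bases before to 50 bases after each start, were listed for 32 of the 40 genes. TCACGTGA occurred in 6 of these 32 genes (18.75%), against 304 of 27025 genes in the whole table (1.125%). The core occurred in 10 of the 32 (31.25%) and in 8.093% of all genes. The 6 genes were Atp6v0d1, Atp6v1a, Ctsa, Ctsd, Gla and Mcoln1, with the first base of the motif 4, 132, 13, 99, 228 and 46 bases before the start, respectively. Gla and Ctsa held 2 copies, and the distance is that of the first. A match describes these letters in this window and does not show that a factor binds there. Of the 6 genes, 3 rose with the fraction without LPS (Atp6v1a, Gla and Atp6v0d1), and Ctsa, Ctsd and Mcoln1 did not pass the test. Beside them, 12 of the 39 lysosomal genes and 15.9% of all tested genes rose in that comparison. A link between the motif and the rise was not tested. Of the 4 promoters below, those of Atp6v1a, Gla and Atp6v0d1 belong to genes that rose with the fraction, and that of Ctsd belongs to a gene that did not pass the test against vehicle. The promoters of Ctsa and Mcoln1, which did not pass either, are not shown, so the display does not reflect the even split of the 6 genes. The 4 promoters shown are described next. All lie on the minus strand and are written 5′ to 3′ with the motif in capitals. They are chr16:44139210-44139509 (Atp6v1a), chrX:134600956-134601255 (Gla), chr8:105566015-105566314 (Atp6v0d1) and chr7:142387778-142388077 (Ctsd).
Atp6v1a: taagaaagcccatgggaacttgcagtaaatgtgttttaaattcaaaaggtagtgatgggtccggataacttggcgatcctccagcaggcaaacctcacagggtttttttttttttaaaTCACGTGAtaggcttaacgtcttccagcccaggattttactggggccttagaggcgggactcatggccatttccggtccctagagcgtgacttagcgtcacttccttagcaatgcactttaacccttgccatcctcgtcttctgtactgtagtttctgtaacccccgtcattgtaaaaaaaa
Gla: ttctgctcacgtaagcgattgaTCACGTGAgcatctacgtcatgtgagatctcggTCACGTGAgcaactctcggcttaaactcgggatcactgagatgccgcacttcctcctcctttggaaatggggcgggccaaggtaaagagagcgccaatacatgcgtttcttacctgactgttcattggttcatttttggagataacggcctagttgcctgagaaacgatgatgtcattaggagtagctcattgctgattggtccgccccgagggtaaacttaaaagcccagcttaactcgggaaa
Atp6v0d1: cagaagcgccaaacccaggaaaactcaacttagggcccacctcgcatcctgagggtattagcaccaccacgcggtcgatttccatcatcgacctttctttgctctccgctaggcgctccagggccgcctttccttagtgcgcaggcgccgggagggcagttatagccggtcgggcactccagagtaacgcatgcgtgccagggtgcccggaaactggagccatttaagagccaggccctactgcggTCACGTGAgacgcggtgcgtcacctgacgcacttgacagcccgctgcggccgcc
Ctsd: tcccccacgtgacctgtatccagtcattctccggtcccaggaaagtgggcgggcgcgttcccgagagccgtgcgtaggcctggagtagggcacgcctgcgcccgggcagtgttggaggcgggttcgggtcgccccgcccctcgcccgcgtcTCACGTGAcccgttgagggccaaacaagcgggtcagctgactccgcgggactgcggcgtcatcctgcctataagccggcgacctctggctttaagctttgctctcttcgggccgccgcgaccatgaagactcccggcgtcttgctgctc

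Values are MAS5 signals, linear intensities scaled by the authors to the same trimmed mean of 500 on every array. Array medians lay between 52.1 and 66.8, and arrays of a group correlated at 0.970 to 0.979. Of 10 macrophage markers, 9 were tested, with Csf1r, Cd14 and Lyz2 well above the array median and Mrc1 under the median on every array. The summed macrophage signal was 61800 to 74880 on the vehicle arrays, 66420 to 74720 with the fraction and 75640 to 84680 with the mixture, and 80860 to 95600 over all arrays with LPS. Sums for T cell, B cell, epithelial, fibroblast, endothelial and neutrophil markers stayed between 26.89 and 270.6 on every array. Most lysosomal genes were bright: 35 of the 39 had a mean signal of at least 100, and Ctsh, Ctsk, Gpnmb and Atp6v0d2 lay lower, near the array median. In cell populations measured as a whole, fewer cells of a kind and less RNA per cell cannot be told apart.

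**Figure D1:**
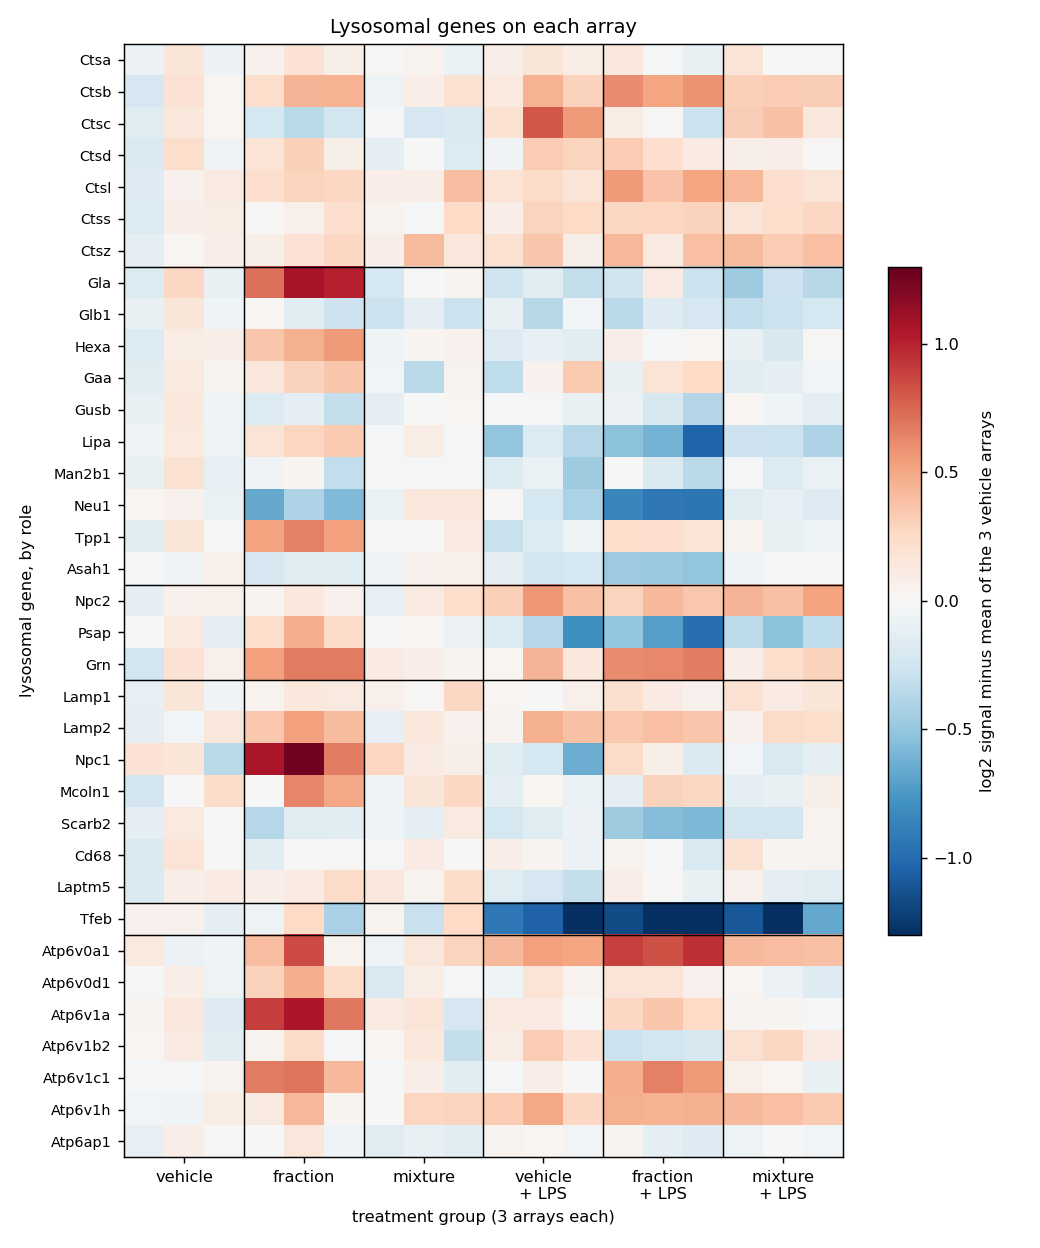
Heat map of the 35 lysosomal genes with a mean signal of at least 100 (rows, by role) on the 18 arrays (columns, 3 per group), coloured by log2 signal minus the mean of the 3 vehicle arrays. Colours stop at 1.3 on either side, a limit that Tfeb passes on some LPS arrays. Gla, Npc1 and Atp6v1a are darkest red on the 3 fraction arrays without LPS, Neu1 is blue on the fraction arrays in both states, and Tfeb is blue on all arrays with LPS.

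Without LPS, the fraction was accompanied by a larger share of rises among the 39 lysosomal genes than over all tested genes. Against vehicle, 12 of the 39 genes rose and 2 fell at an adjusted p under 0.05, while 15.9% of all tested genes rose and 15.3% fell. The share that rose (12 of 39) was above the background share, and the share that fell (2 of 39) was below it. The median difference of the 39 genes was 0.19 on the log2 scale, against 0.02 over all genes. By class, the risers were 2 of 9 cathepsins, 3 of 10 other hydrolases, 1 of 3 soluble proteins, 2 of 8 membrane proteins and 4 of 8 pump genes. The classes are small, and 1 or 2 risers do not set a class apart from the 15.9% of all tested genes. Differences below are log2 differences of group means ± standard error (SE), tested with limma and adjusted over all 11547 genes.

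Among the hydrolases, Gla, the alpha-galactosidase that removes terminal galactose from glycolipids, changed most. Its signals on the 3 vehicle arrays were 587, 800 and 619, and on the 3 fraction arrays 1089, 1393 and 1334. Every fraction array lay above every vehicle array. The rise was 0.93 ± 0.14, or 1.91-fold (adjusted p = 3.13e-05), and a second, dimmer probe set rose as well. Tpp1, a peptidase that trims tripeptides from the ends of proteins, gave 3207, 4002 and 3563 with vehicle and 5153, 5629 and 5162 with the fraction. The groups were again apart, by 0.57 ± 0.08 or 1.49-fold (adjusted p = 3.6e-05). Hexa, the alpha subunit of beta-hexosaminidase, rose from 4556, 5491 and 5444 to 6628, 7076 and 7537. This was a rise of 0.46 ± 0.08 (adjusted p = 0.000226) with no overlap of the groups.

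The neuraminidase gene Neu1, whose product removes sialic acid from glycans, moved the other way. Its vehicle signals of 1279, 1298 and 1183 stood against 790, 951 and 843 with the fraction. All fraction arrays lay below all vehicle arrays, and the fall was -0.54 ± 0.11, or 1.46-fold (adjusted p = 0.000551). Asah1, the acid ceramidase, read 3511, 3454 and 3727 with vehicle and 3053, 3183 and 3202 with the fraction. The groups did not overlap, but the fall of -0.18 ± 0.07 was small and stood near the threshold (adjusted p = 0.0446, lost under 11 of 15 alternative settings, among them the leaving out of any 1 of the 6 arrays, with adjusted p up to 0.158). The other 5 hydrolases of this class did not pass the test: Lipa, which hydrolyses cholesteryl esters, had a difference of 0.26 (adjusted p = 0.0776), Gaa 0.27, Gusb -0.20, Glb1 -0.13 and Man2b1 -0.11.

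Of the cathepsins, Ctsb and Ctsl rose. Ctsb, a cysteine protease, read 11508, 15240 and 13668 with vehicle and 15644, 18164 and 18349 with the fraction. The groups were apart, though vehicle array 2 came close to fraction array 1. The rise was 0.37 ± 0.10 (adjusted p = 0.00702), and it missed the threshold without vehicle array 1 (adjusted p = 0.0503). Dimmer Ctsb probe sets went from geometric means of 555 to 1346, 147 to 314 and 12222 to 16937, and another from 248 to 261. The size of the Ctsb difference thus depended on the probe set read. Ctsl, another cysteine protease, rose by 0.26 ± 0.09 (adjusted p = 0.0385) from a geometric mean of 14673 to 17545, and median centring ended the call (adjusted p = 0.0769). The aspartic protease Ctsd had a difference of 0.19 ± 0.11 (adjusted p = 0.204), and Ctsa, Ctss and Ctsz had differences of 0.11, 0.10 and 0.18, none past the threshold. Ctsc, the dipeptidyl peptidase that activates granule proteases, had a difference of -0.28 (adjusted p = 0.108) with fraction arrays below all vehicle arrays. Ctsk, the collagen-degrading protease of osteoclasts, read 84.6, 64.4 and 32.7 with vehicle and 80.6, 50.6 and 52.1 with the fraction, and Ctsh had group means of 48.9 and 46.3. At these signals, close to the array median, a difference was not detectable.

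Grn encodes progranulin, a precursor that is cut into granulins in the lysosome. It read 8330, 11258 and 10362 with vehicle and 14345, 15785 and 15772 with the fraction. All fraction arrays were higher, by 0.63 ± 0.10 or 1.54-fold (adjusted p = 0.00012). Its other 2 probe sets also rose, by 0.82 and 1.19. Psap, the precursor of the saposins that present lipids to hydrolases, read 2997, 3267 and 2736 with vehicle and 3504, 4146 and 3556 with the fraction. The groups did not overlap, yet the difference of 0.32 ± 0.14 missed the threshold (adjusted p = 0.0846). Npc2, which carries cholesterol within the lumen, differed by 0.08 with overlapping groups.

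Of the membrane proteins, Npc1, the partner of Npc2 that passes cholesterol out through the membrane, had the largest rise among the genes that passed the test. It read 445, 436 and 307 with vehicle and 816, 930 and 617 with the fraction. The lowest fraction array was above the highest vehicle array, and the rise was 0.99 ± 0.17, or 1.99-fold (adjusted p = 0.000199). Lamp2, an abundant glycoprotein of the lysosomal membrane, rose from 4144, 4387 and 4986 to 5725, 6516 and 5990. The groups were apart, by 0.43 ± 0.10 (adjusted p = 0.00264). Its other 3 probe sets differed by 0.11 to 0.17 and none passed the test, so the rise rests on 1 of 4 probe sets. Lamp1, its close relative, differed by 0.10 ± 0.08 (adjusted p = 0.368), and Mcoln1, a calcium channel of the lysosome, by 0.38 ± 0.16 (adjusted p = 0.0741). Cd68, Laptm5 and Scarb2 had differences of -0.04, 0.15 and -0.23, none past the threshold. Gpnmb, a glycoprotein of stressed lysosomes and osteoclasts, read 118, 119 and 70.2 with vehicle and 223, 211 and 110 with the fraction, and its difference of 0.80 ± 0.46 did not pass (adjusted p = 0.211).

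Tfeb itself did not pass the test. The signals were 252, 252 and 223 with vehicle and 231, 291 and 180 with the fraction. The groups overlapped, with a difference of -0.08 ± 0.22 (adjusted p = 0.837).

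**Figure D2:**
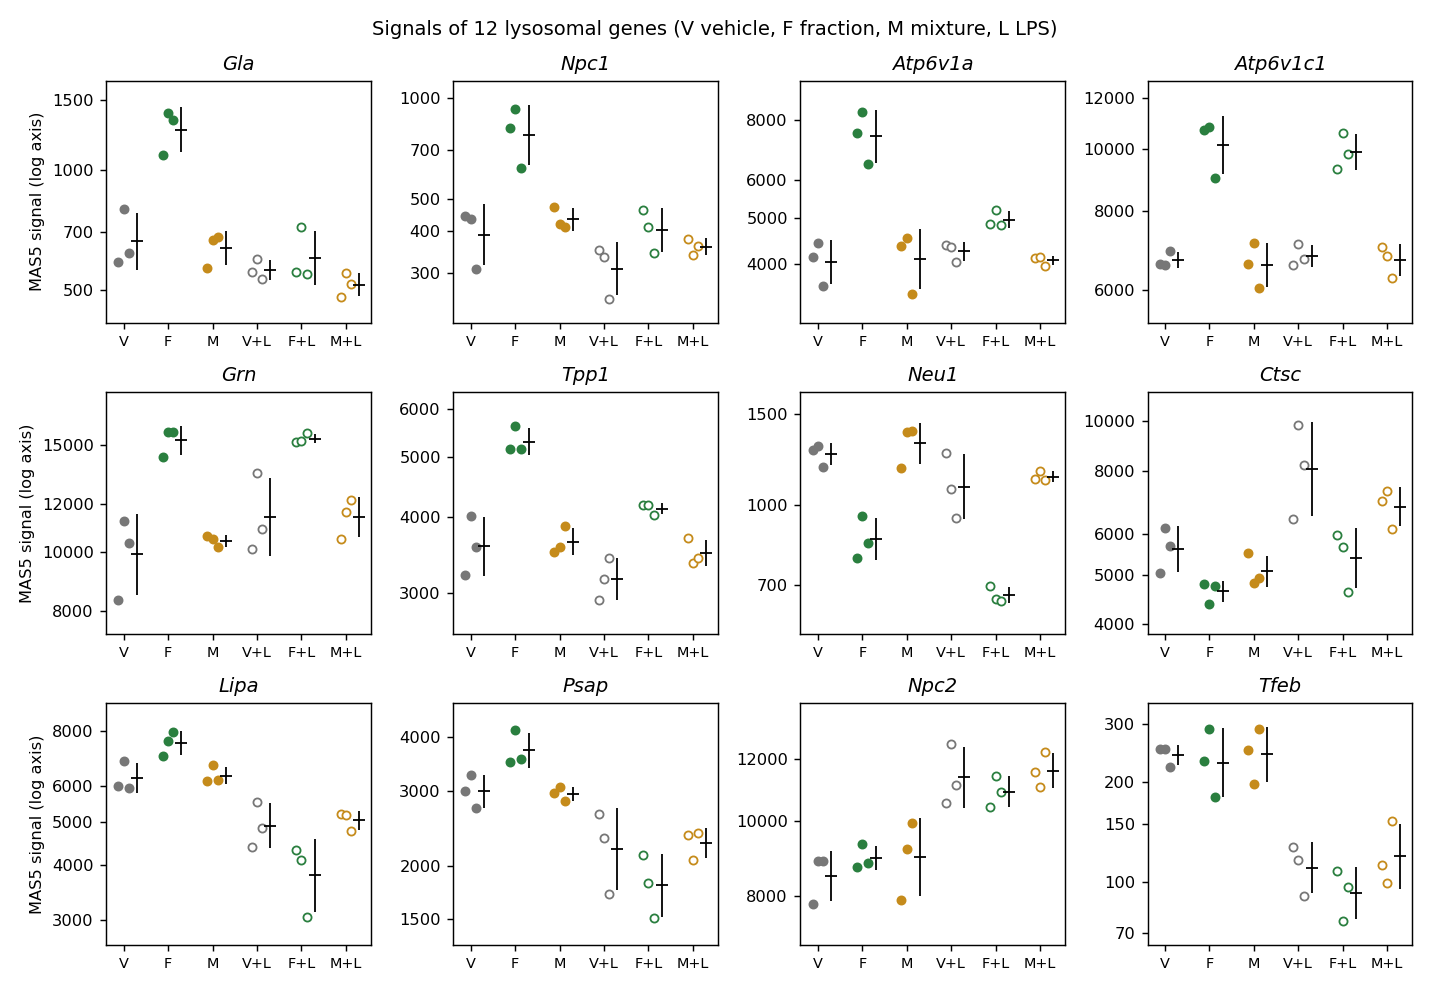
Signals of 12 lysosomal genes on every array (points, log axis) with geometric mean and SD of the log2 values (bars) for vehicle (V), fraction (F) and mixture (M), alone or with LPS (L). Gla, Npc1 and Atp6v1a are high on the 3 fraction arrays without LPS, Atp6v1c1 and Grn on all 6 fraction arrays, and Neu1 is low on all 6.

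All 8 pump genes had a positive difference, and the 4 that passed the test belonged to both sectors. Atp6v1a, the catalytic subunit of V1, read 4127, 4430 and 3586 with vehicle and 7523, 8346 and 6475 with the fraction. The groups were far apart, by 0.88 ± 0.10 or 1.84-fold (adjusted p = 2.93e-06), and its second probe set rose by 0.66. Atp6v1c1, of the stalk that joins V1 to V0, read 6595, 6576 and 6908 with vehicle and 10703, 10829 and 8986 with the fraction. The rise of 0.60 ± 0.08 (adjusted p = 1.6e-05) was shared by its other 2 probe sets, at 0.40 and 0.59. In V0, Atp6v0d1 rose from 2905, 3098 and 2787 to 3595, 4065 and 3469. The groups were apart by 0.34 ± 0.09 (adjusted p = 0.00723), and the call was lost without fraction array 2 (adjusted p = 0.0519).

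Atp6v0a1, the membrane subunit next to the proton path, read 304, 264 and 268 with vehicle and 367, 502 and 288 with the fraction. Fraction array 3 lay within the vehicle range, so the groups overlapped although the rise of 0.43 ± 0.15 passed the test (adjusted p = 0.0361), and quantile normalization ended the call (adjusted p = 0.108). Atp6v1b2, the other subunit of the V1 head, differed by 0.09, Atp6v1h by 0.19 and the accessory protein gene Atp6ap1 by 0.04, and none passed. Atp6v0d2, the form of the d subunit known from osteoclasts, read 67.3, 64.6 and 28.4 with vehicle and 142, 115 and 123 with the fraction. All fraction arrays were higher. The vehicle mean lay under the array median, and the fraction mean was 2.27-fold that median. The difference of 1.34 ± 0.62 did not pass (adjusted p = 0.111), so no least size of a rise is given. Summed osteoclast marker signals were 2282 to 2516 on the fraction arrays and 3197 to 4258 on the vehicle arrays, with Calcr and Itgb3 under the array median throughout. Nfatc1 made up most of the gap, with group means of 2082 with vehicle and 842 with the fraction, while Mmp9 read 82.7 and 141.3 and Acp5 46.1 and 61.4. Their part in the results for Ctsk, Gpnmb and Atp6v0d2 was not tested.

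**Figure D3:**
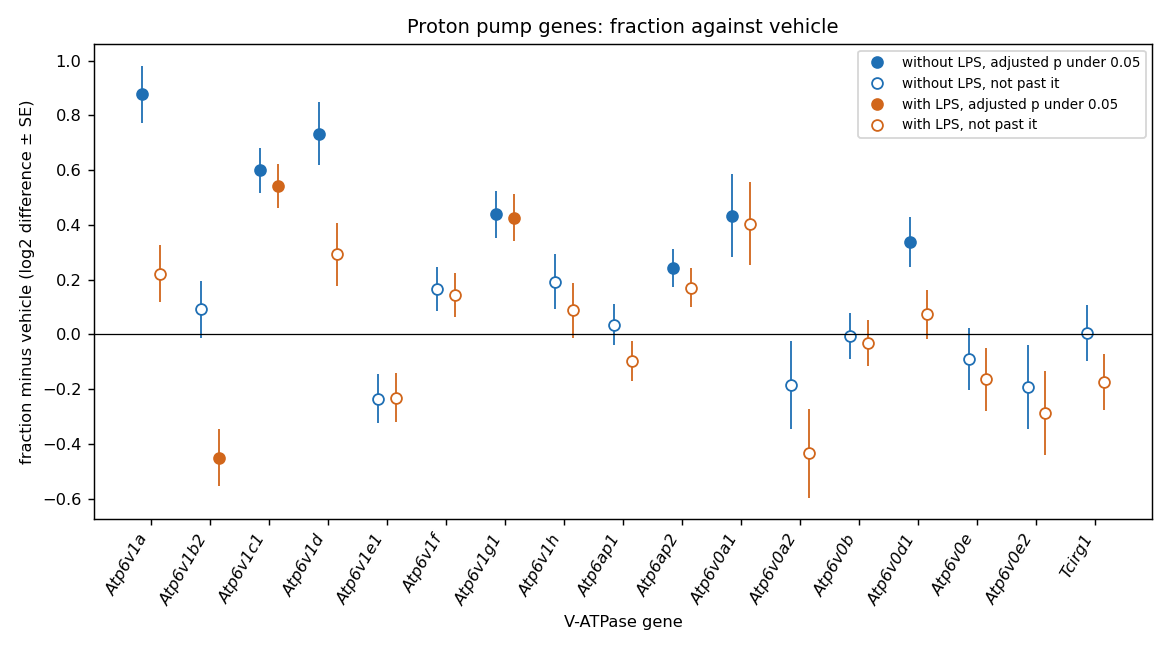
Log2 difference ± SE of fraction against vehicle for 17 V-ATPase genes with group means of at least 100, without LPS (blue) and with LPS (orange); filled points passed the test at an adjusted p under 0.05. Atp6v1a stands highest without LPS at 0.88 and at 0.22 with LPS, and Atp6v1c1 is filled in both states.

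With LPS present in both groups, Atp6v1c1, Grn and Tpp1 were higher with the fraction, and Neu1, Ctsc, Atp6v1b2, Scarb2, Lipa and Asah1 were lower. Of the 39 genes 5 rose and 6 fell, while 11.1% of all tested genes rose and 12.7% fell, so both counts lay near the background shares. The median difference was 0.07, against -0.02 over all genes. The 5 risers, Atp6v1c1, Grn, Tpp1, Ctsb and Ctsl, had all risen without LPS, and 2 of the 6 that fell, Neu1 and Asah1, had fallen there. The 7 genes called in the same direction in both states were 7 of the 14 calls without LPS and 7 of the 11 with LPS. These comparisons used separate control arrays. The matching overlap over all tested genes was not counted, so nothing particular to the lysosomal genes is read from it.

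Atp6v1c1 differed by a like amount in both states, with an interaction of -0.06 ± 0.12 (adjusted p = 0.89). It read 6563, 7096 and 6707 with vehicle plus LPS and 9289, 10565 and 9817 with fraction plus LPS. The groups were far apart, by 0.54 ± 0.08 or 1.46-fold (adjusted p = 8.2e-05). Grn read 10108, 13498 and 10925 against 15191, 15270 and 15722. The 3 fraction arrays lay close together above the vehicle arrays, by 0.43 ± 0.10 (adjusted p = 0.00458). Tpp1 read 2924, 3157 and 3423 against 4176, 4172 and 4023, a rise of 0.38 ± 0.08 (adjusted p = 0.00231) with the groups apart. Ctsb and Ctsl rose by 0.28 each (adjusted p = 0.048 and 0.0328), and these calls were lost under 11 and 8 of the 15 alternative settings, with adjusted p up to 0.218 and 0.119. Leaving out vehicle + LPS array 1 or 3, or fraction + LPS array 1 or 3, ended both, and leaving out fraction + LPS array 2 ended that of Ctsb.

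Neu1 had the largest fall. Its signals were 1262, 1072 and 943 with vehicle plus LPS and 697, 657 and 653 with fraction plus LPS. No arrays overlapped, and the fall was -0.70 ± 0.11, or 1.62-fold (adjusted p = 8.22e-05). Ctsc read 6441, 9842 and 8227 against 5988, 5667 and 4631. The fraction arrays were lower, by -0.58 ± 0.13 (adjusted p = 0.00227), and a second probe set fell by -1.55. Scarb2, the receptor that carries beta-glucocerebrosidase to the lysosome, read 2217, 2330 and 2473 against 1889, 1756 and 1734. The fall was -0.38 ± 0.10 (adjusted p = 0.00717), while a second probe set differed by -0.19 and did not pass.

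The pump gene Atp6v1b2 read 4676, 5495 and 4985 with vehicle plus LPS and 3596, 3698 and 3772 with fraction plus LPS. It fell by -0.45 ± 0.10 (adjusted p = 0.00335) with the groups apart, so that 1 subunit of the V1 head was lower while the stalk subunit Atp6v1c1 was higher on the same arrays. Asah1 read 3284, 3013 and 3031 against 2572, 2552 and 2496, a fall of -0.29 ± 0.07 (adjusted p = 0.003). Lipa read 4379, 5525 and 4829 against 4323, 4103 and 3047. The lowest vehicle array nearly met the highest fraction array, and the fall of -0.37 ± 0.11 (adjusted p = 0.0187) missed the threshold without vehicle + LPS array 2 or without fraction + LPS array 3, with adjusted p up to 0.142. Of the genes followed throughout, Lamp1, Ctsd, Tfeb and Gpnmb had differences of 0.09, 0.03, -0.26 and 0.38, none past the threshold. Ctsk and Atp6v0d2 had differences of -0.24 and 0.61 and did not pass either.

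**Figure D4:**
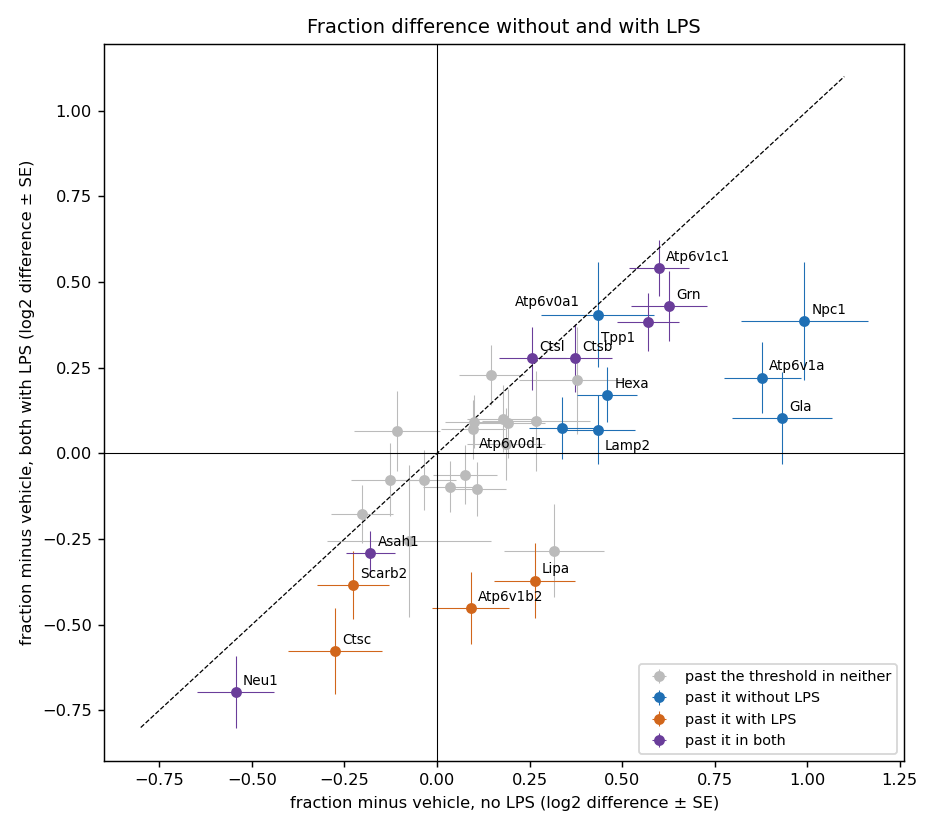
Log2 difference ± SE of fraction against vehicle without LPS (horizontal) and with LPS (vertical) for the 35 lysosomal genes with a mean signal of at least 100; the dashed line marks equal differences. Atp6v1c1, Ctsl and Neu1 lie near the line, and Gla, Npc1 and Atp6v1a lie well below it at 0.93, 0.99 and 0.88 without LPS.

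The difference between both states was tested as an interaction of fraction and LPS over the 4 groups concerned. For 34 of the 39 genes (87.2%) the fraction's difference was lower with LPS than without, against 54.2% of all genes, and the median was -0.17 against -0.03. Of the 39 genes, 3 passed the test downward and 0 upward, while 1.25% of all genes passed downward and 0.892% upward. The 3 were Gla, with an interaction of -0.83 ± 0.19 (adjusted p = 0.0274), Atp6v1a with -0.66 ± 0.15 (adjusted p = 0.0231) and Lipa with -0.64 ± 0.16 (adjusted p = 0.0371). On the fraction + LPS arrays Gla read 554, 720 and 547, overlapping the vehicle + LPS arrays of 553, 597 and 533. Atp6v1a read 4852, 5191 and 4815 there, above the vehicle + LPS arrays of 4383, 4344 and 4027. Npc1, with the largest rise without LPS among the genes that passed, had an interaction of -0.61 ± 0.24 that did not pass (adjusted p = 0.257), as had Psap (-0.60, adjusted p = 0.128) and Atp6v1b2 (-0.54, adjusted p = 0.0635). These 3 calls stood close to the threshold: over the 12 settings that leave out 1 array, between 0 and 5 genes passed.

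The Gla call was lost without vehicle array 1 or 3, any fraction array other than array 1, vehicle + LPS array 2, or fraction + LPS array 1 or 3, with adjusted p up to 0.0826. That of Atp6v1a was lost without vehicle array 3, fraction array 2, vehicle + LPS array 2, or fraction + LPS array 1 or 3, with adjusted p up to 0.0762. That of Lipa was lost without vehicle array 1 or 3, fraction array 2 or 3, vehicle + LPS array 2 or 3, or fraction + LPS array 3, with adjusted p up to 0.119. Without the intensity trend all 3 calls were lost (adjusted p = 0.0623 for Gla, 0.0646 for Atp6v1a and 0.1 for Lipa). Without the 6 arrays numbered 1, those of Gla and Atp6v1a were lost (adjusted p = 0.0869 and 0.164). With only the compared arrays, those of Gla and Lipa were lost (adjusted p = 0.0698 and 0.0975). That of Lipa was also lost with no filter or with every kept probe set (adjusted p = 0.0525 and 0.0556). In every one of these settings the 3 interactions kept their sign.

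LPS itself was accompanied by lower Tfeb and by changes in both directions among the enzymes and carriers. In vehicle cells 6 of 39 genes rose and 4 fell, while 10.1% of all tested genes rose and 21.8% fell. In fraction-treated cells 3 rose and 12 fell, beside 11.5% and 25.8% of all genes, and in mixture-treated cells 2 rose and 3 fell, beside 8.32% and 16.3%. The median differences of the 39 genes were 0.02, -0.12 and -0.01, and those of all genes -0.08, -0.11 and -0.07. Centring each array on the median of the tested genes moved the all-gene median of these comparisons up by 0.19, 0.19 and 0.13. With that centring 16 genes rose and 1 fell in vehicle cells, 9 and 7 in fraction-treated cells, and 7 and 1 in mixture-treated cells. Over all 11547 genes the split in vehicle cells went from 1161 higher and 2519 lower to 2366 higher and 1351 lower. With that centring the all-gene split was 2582 higher and 1694 lower in fraction-treated cells, and 1689 and 1092 in mixture-treated cells. The direction of small LPS differences therefore depended on the scaling, and the calls named next kept their sign under both scalings tried.

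Tfeb fell in all 3 treatments. The signals were 252, 252 and 223 with vehicle and 127, 117 and 90.2 with vehicle plus LPS. All LPS arrays were lower, by -1.14 ± 0.22 or 2.20-fold (adjusted p = 0.000553). With the fraction it fell by -1.32 ± 0.22 to 108, 75.8 and 96.0 (adjusted p = 9.73e-05), and with the mixture by -1.02 ± 0.22 to 112, 98.8 and 153 (adjusted p = 0.00179). These falls passed the test under every alternative run. Tfeb was measured by 1 probe set, and its lowest signal with LPS, 75.8, was close to the highest array median of 66.8.

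The cholesterol carrier gene Npc2 rose in all 3 treatments. In vehicle cells it read 7808, 8870 and 8879 without LPS and 10539, 12557 and 11110 with it. The groups were apart by 0.42 ± 0.09 (adjusted p = 0.000873), and in fraction- and mixture-treated cells the rises were 0.28 (adjusted p = 0.0139) and 0.37 (adjusted p = 0.00337). The rise in fraction-treated cells was lost with quantile normalization and without fraction + LPS array 2. Ctsc read 5027, 6163 and 5699 without LPS and 6441, 9842 and 8227 with it, a rise of 0.52 ± 0.13 (adjusted p = 0.00342), and a second probe set rose by 2.08. With the mixture it rose by 0.42 (adjusted p = 0.0189, up to 0.083 without mixture array 2 or 3 or mixture + LPS array 1 or 2), and with the fraction its difference of 0.22 did not pass.

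Other genes that rose in vehicle cells were Atp6v0a1 by 0.49 (adjusted p = 0.0195), Atp6v1h by 0.37 (adjusted p = 0.00781), Lamp2 by 0.30 (adjusted p = 0.0294) and Ctsb by 0.29 (adjusted p = 0.0291). For Lamp2 and Ctsb the groups overlapped, and quantile normalization ended both calls (adjusted p = 0.0759 and 0.24). The Atp6v0a1 call was lost without any 1 of vehicle arrays 2 and 3 and vehicle + LPS arrays 2 and 3, with adjusted p up to 0.0643. That of Atp6v1h was lost without vehicle + LPS array 2 (adjusted p = 0.0537). In fraction-treated cells Atp6v0a1 rose by 0.46 (adjusted p = 0.0239) and Atp6v1h by 0.26 (adjusted p = 0.0448, lost under 11 of 15 alternative settings, including the leaving out of any compared array except fraction array 2). The count of calls in vehicle cells was itself sensitive to single arrays: it was 14 without vehicle + LPS array 1, 5 without vehicle + LPS array 2 and 4 without vehicle + LPS array 3.

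Psap and Lipa fell with LPS in every treatment. Psap read 2643, 2319 and 1719 with vehicle plus LPS, 2118, 1820 and 1514 with fraction plus LPS, and 2357, 2067 and 2384 with mixture plus LPS. Against the same treatment without LPS the falls were -0.45 ± 0.14 (adjusted p = 0.0152), -1.05 ± 0.14 (adjusted p = 5.07e-06) and -0.38 ± 0.14 (adjusted p = 0.0459). Lipa fell by -0.36 (adjusted p = 0.0175), -0.99 (adjusted p = 8.65e-07) and -0.33 (adjusted p = 0.0322). The falls of both genes in fraction-treated cells passed under every alternative run. Those in vehicle and mixture-treated cells did not, and median centring ended all 4 of those calls, as well as that of Asah1 (-0.20, adjusted p = 0.0274) in vehicle cells. Leaving out vehicle array 2 or vehicle + LPS array 3 also ended both calls in vehicle cells, and leaving out vehicle + LPS array 1 ended that of Lipa. In mixture-treated cells both calls were lost without any 1 of the 6 arrays compared, with adjusted p up to 0.183 and 0.207. The Asah1 call was lost without vehicle array 3 or vehicle + LPS array 2 or 3.

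In fraction-treated cells LPS was further accompanied by falls of genes that the fraction had raised. Gla fell by -1.07 ± 0.14 (adjusted p = 4.05e-06), Npc1 by -0.94 ± 0.17 (adjusted p = 0.000221), Atp6v1a by -0.58 ± 0.10 (adjusted p = 0.000183) and Hexa by -0.43 ± 0.08 (adjusted p = 0.000331), and these passed under every alternative run. Tpp1 (-0.36, adjusted p = 0.00187), Neu1 (-0.36, adjusted p = 0.0106) and Atp6v1b2 (-0.34, adjusted p = 0.0152) also fell, and median centring ended these 3 calls. Scarb2 and Asah1 each fell by -0.31 (adjusted p = 0.0177 and 0.00102), and median centring ended both calls as well (adjusted p = 0.396 and 0.191). The Neu1 and Atp6v1b2 calls were lost without fraction array 2, with adjusted p up to 0.203 and 0.296 over all settings. The corresponding LPS differences in vehicle cells were -0.24 for Gla, -0.34 for Npc1, 0.08 for Atp6v1a and -0.14 for Hexa, none past the threshold. The fraction arrays without LPS are the controls here and the treated group in the first comparison, so the rises and these falls are not independent.

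Among the genes followed throughout, Lamp1 and Ctsd did not pass in any LPS comparison, with differences between 0.03 and 0.19, and those of Lamp1, as well as that of Ctsd in fraction-treated cells, turned negative with quantile normalization. Gpnmb differed by -0.29, -0.70 and -0.51, Ctsk by 0.71, 0.39 and 1.07 and Atp6v0d2 by -0.07, -0.80 and -1.48 in vehicle, fraction-treated and mixture-treated cells. None of these passed, and the 3 genes lay near the array median. For 3 genes whose brightest probe set did not pass in vehicle cells, other probe sets fell with LPS: that of Scarb2 by -1.13, those of Laptm5 by -0.50 and -0.55, and that of Man2b1 to 40.3, 15.2 and 33.0, under the array median, from 240, 198 and 124. Their response to LPS thus depended on the probe set read.

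With the mixture of 4 compounds, no lysosomal gene differed from vehicle at an adjusted p under 0.05, with or without LPS, and neither did any other gene (0% of those tested in both comparisons, limma). At an unadjusted p under 0.05 there were 2 of the 39 genes in each comparison, beside 565 of all 11547 genes without LPS and 934 with it. The 2 were Ctsz and Glb1 without LPS and Asah1 and Atp6v0d2 with it. The 3 mixture arrays lay apart from the 3 vehicle arrays for 1 gene without LPS, Glb1 (836, 931 and 834 against 948, 1131 and 975), beside 8.31% of all genes. With LPS this held for 3 genes, Asah1, Lamp1 and Laptm5, all higher with the mixture, beside 12.6% of all genes. Over the 35 genes with a mean signal of at least 100, differences ran from -0.23 (Glb1) to 0.22 (Ctsz) without LPS and from -0.24 (Ctsc) to 0.22 (Npc1) with LPS, and the medians of all 39 were 0.01 in both. For the genes that moved with the fraction, the mixture gave small differences from vehicle: Gla read 567, 667 and 679 and Atp6v1a 4363, 4522 and 3460, both overlapping the vehicle arrays. The interaction of mixture and LPS passed for 0 lysosomal genes and for 0% of all genes. Beside 412 of all 11547 genes, 0 of the 39 had an unadjusted p under 0.05 for it. The smallest unadjusted p belonged to Atp6v0d2 (0.124), Asah1 (0.144) and Atp6v1h (0.233).

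Set against the mixture directly and without LPS, the fraction was accompanied by higher Gla, Npc1, Atp6v1a and Atp6v1c1 signals and by lower Neu1. In that state 11 genes were higher and 2 lower with the fraction, beside 17% and 15.4% of all genes. Gla (0.99), Atp6v1a (0.86), Npc1 (0.84), Atp6v1c1 (0.63) and Grn (0.55) led the higher genes (adjusted p from 3.88e-06 to 0.000904), and Neu1 (-0.61) and Asah1 (-0.21) were lower. Ctsd passed here (0.28, adjusted p = 0.047), a call lost under 9 of 15 alternative settings. With LPS 6 were higher and 5 lower, beside 12% and 16.2% of all genes. Atp6v1c1 (0.56), Grn (0.43), Neu1 (-0.76), Asah1 (-0.46) and Scarb2 (-0.40) passed under every alternative run. The V1 subunit gene Atp6v1b2 (-0.44, adjusted p = 0.00367) and Lipa (-0.41, adjusted p = 0.00826) were lower too, and the Lipa call was lost without fraction + LPS array 3 (adjusted p = 0.0656). Atp6v0d2 read 5.40, 57.3 and 14.0 with mixture plus LPS, a group under the array median, and 61.3, 92.1 and 67.1 with fraction plus LPS. Its mean with fraction plus LPS was 1.24-fold the array median of the mixture plus LPS arrays, and the difference was 2.15 (adjusted p = 0.0131). The call was lost without mixture + LPS array 1, without the 6 arrays numbered 1 and in a fit of the compared arrays alone, with adjusted p up to 0.127. As both comparisons share the fraction arrays, they do not support each other. The fraction was dosed by weight and the mixture by molar concentration, and how the doses compare was not examined here.

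Other genes of the pathway, listed by function, are given as counts, beside the 15.9% of all tested genes that rose and the 15.3% that fell. In the comparison of fraction with vehicle without LPS, 9 of 33 other hydrolases and cofactors rose and 3 fell, with Idua, the alpha-iduronidase, at 1.12 and Scpep1, a carboxypeptidase, at 0.79. Of 24 other membrane proteins and transporters 7 rose and 0 fell, including the amino acid transporter Slc38a9 at 0.80, the chloride-proton exchanger Clcn7 at 0.78 and the sialic acid exporter Slc17a5 at 0.60. Among 12 other V-ATPase subunits 3 rose and 0 fell: Atp6v1d by 0.73, Atp6v1g1 by 0.44 and Atp6ap2 by 0.24. Counting these with the 8 pump genes above, no V-ATPase gene passed the test downward in that comparison. The 12 other subunits had 7 positive and 5 negative differences, with a median of 0.086. Atp6v1e1 differed by -0.235 with all fraction arrays below all vehicle arrays, just short of the threshold (adjusted p = 0.0556).

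Of 30 genes that sort proteins to the lysosome, 9 rose and 5 fell, led by the adaptor subunit gene Ap1s1 at -0.59 and Vps39, of a tethering complex, at 0.57. Of 22 MiT/TFE factors and nutrient-sensing genes 9 rose and 1 fell, among them Mitf, a relative of Tfeb, by 0.66 ± 0.15 (adjusted p = 0.00178), and the folliculin partners Fnip1 by 0.79 and Fnip2 by 0.63. With LPS in fraction-treated cells Mitf fell by -0.66 (adjusted p = 0.00141), while Tfec, another relative, rose by 1.27 (adjusted p = 0.00624) there and by 0.92 (adjusted p = 0.0451) in vehicle cells. Of 26 autophagy genes 8 rose and 2 fell, with Sqstm1, the cargo receptor p62, at 1.42 ± 0.10 (means of 7652 with vehicle and 20410 with the fraction). Of 5 inhibitors of cathepsins and other proteases that were tested 2 rose, Serpinb9 by 1.83 and Serpinb6b by 1.48. Cst3, Cstb and Cst7 had differences of 0.05, 0.23 and 0.49, none past the threshold.

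With LPS in both groups, where 11.1% of all tested genes rose and 12.7% fell, the counts for fraction against vehicle were 2 higher and 3 lower of 33 other hydrolases, 2 and 2 of 24 membrane proteins, 2 and 0 of 12 V-ATPase subunits, 2 and 6 of 30 sorting genes, 3 and 1 of 22 nutrient-sensing genes, 3 and 3 of 26 autophagy genes, and 0 and 0 of 5 protease inhibitors. Sqstm1 was still 1.05 higher with the fraction. Interactions of fraction and LPS passed for 2 of the 33 other hydrolases, Idua (-1.09, adjusted p = 0.0314) and Naaa (-0.78, adjusted p = 0.0262). They passed for 1 of the 22 nutrient-sensing genes, Fnip2 (-1.03, adjusted p = 0.00863). Of the 26 autophagy genes 2 passed, Uvrag (-0.90, adjusted p = 0.0232) and Nbr1 (-0.61, adjusted p = 0.0145), and no gene of the other lists did. All 5 were negative, as were the 3 of Gla, Atp6v1a and Lipa. Over all tested genes, 1.25% passed downward and 0.892% upward.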

How the data were processed

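RNA was isolated with Trizol and an RNeasy kit, labelled with biotin in 1 cycle and hybridized to Affymetrix whole-genome mouse arrays, per the labels' protocols. The deposited values were linear MAS5 signal intensities, per the submitters' processing notes; the MAS5 version and raw scans were not used here. Signals under 1 (0.823% of values) were set to 1 and taken to log2. A probe set stayed in if 3 or more of the 18 arrays had it at or over their median, and the brightest stood for each of 11547 genes. The 6 group means were estimated in a single limma fit (version 3.58.1, R 4.3.3, eBayes with intensity trend, 12 residual degrees of freedom), with two-sided tests, Benjamini-Hochberg adjustment over all genes and a threshold of 0.05. The fit was tested on simulated data.

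The genes and lists were chosen with earlier results of these data known. Named in each comparison were genes past the threshold whose groups did not overlap (10 largest rises and falls), 6 genes followed throughout (Lamp1, Ctsd, Tfeb, Ctsk, Gpnmb, Atp6v0d2), all interactions past the threshold or the 3 with the smallest p, and up to 4 genes per other list. Other genes were named to account for all 39. A fold against a group under its array median is a lower bound. Alternatives were quantile normalization, median centring, log2 of the signal plus 32, no filter, no intensity trend, a replicate block, only the compared arrays, every kept probe set, and arrays left out. Precision is limited by the number of arrays and, for dim probe sets, by signals near the array median.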

Additional observations from a re-analysis of the deposited data

Results flagged for a closer look

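For 3 genes, the difference between fraction and vehicle was itself different with and without LPS, by an interaction test with limma adjusted over all 11547 genes. The interaction of Gla was -0.83 (adjusted p = 0.0274), with the fraction 0.93 above vehicle without LPS and 0.10 above it with LPS. That of Lipa was -0.64 (adjusted p = 0.0371), with 0.26 without LPS and -0.37 with it. That of Atp6v1a was -0.66 (adjusted p = 0.0231), with 0.88 without LPS and 0.22 with it. Each of the 3 calls was lost when certain single arrays were left out, as listed above. Groups of 3 arrays are too small to name a single array as an outlier.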

How the results depend on the processing

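Of 75 results for single named genes that passed the threshold, 44 passed it with the same direction under every alternative, 31 missed it under at least one and 0 changed sign. Of 40 that had not passed, 10 did under at least one alternative and 12 changed sign under at least one. The count of lysosomal genes called for LPS in vehicle cells went from 10 to 17 with median centring and to 6 with only the compared arrays. For LPS in mixture-treated cells it went from 5 to 8 with median centring and to 3 without the intensity trend. For fraction against mixture with LPS it went from 11 to 7 without the 6 arrays numbered 1. For the interaction of fraction and LPS it went from 3 to 0 without the intensity trend and to 1 with only the compared arrays or without the 6 arrays numbered 1. With 1 array left out, the counts ranged from 4 to 14 (LPS in vehicle cells), 12 to 14 (in fraction-treated cells), 3 to 3 (in mixture-treated cells), 10 to 13 (fraction against vehicle without LPS), 8 to 10 (with LPS), 11 to 13 (fraction against mixture without LPS), 8 to 11 (with LPS) and 0 to 5 (interaction of fraction and LPS), and stayed at 0 to 0 for the mixture against vehicle and its interaction. The cause was not tested, beyond the smaller number of arrays in the settings that leave some out.

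The labels do not say what equal replicate numbers share. Deviations from the group means of same-numbered arrays correlated at 0.018 to 0.170 (median 0.088, over 0.1 in 9 of 45 pairs), against a median of -0.037 for other pairs, and all 18 arrays correlated best with their own number. The arrays were analysed as unpaired. With a replicate block the counts were 14, 17 and 8 for LPS in vehicle, fraction-treated and mixture-treated cells, 19 and 13 for fraction against vehicle without and with LPS, 17 and 15 for fraction against mixture, and 5 for the interaction of fraction and LPS.

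The sign changes belonged to 6 genes, in comparisons where they had not passed. With quantile normalization Lamp1 read -0.140, -0.166 and -0.078 for LPS in vehicle, fraction-treated and mixture-treated cells and 0.064 for fraction against mixture without LPS, Ctsd -0.133 for LPS in fraction-treated cells, and Ctsk -0.020 for fraction against vehicle without LPS. With median centring Atp6v0d2 read 0.112 for LPS in vehicle cells. Without the 6 arrays numbered 1, Lamp1 read -0.019, -0.044 and -0.014 for LPS in the 3 treatments, Atp6v0d2 0.526 for LPS in vehicle cells, and Ctsd -0.027 for LPS in fraction-treated cells and -0.146 for fraction against vehicle with LPS. With 1 array left out, the LPS differences of Lamp1 ranged from -0.022 to 0.109 (vehicle), -0.017 to 0.060 (fraction) and -0.018 to 0.109 (mixture), that of Atp6v0d2 from -0.478 to 0.309 (vehicle) and that of Ctsd from -0.026 to 0.092 (fraction). For fraction against vehicle they ranged from -0.245 to 0.099 for Tfeb and -0.307 to 0.380 for Ctsk without LPS, and from -0.090 to 0.098 for Ctsd and -0.037 to 1.058 for Gpnmb with LPS. For fraction against mixture they ranged from -0.072 to 0.055 for Lamp1 and -0.250 to 0.094 for Tfeb without LPS, and from -0.071 to 0.006 for Lamp1 with LPS. Signals near the array median limit what can be said of Ctsh, Ctsk, Gpnmb and Atp6v0d2.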
